A study of Mus musculus with 6 samples.

Results

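The vascular growth factors of the VEGF, PDGF and angiopoietin families were followed across 3 groups of mouse ovarian granulosa cells. Every probe set of the array whose single gene symbol in the platform annotation was Vegfa, Vegfb, Vegfc, Pgf, Pdgfa, Pdgfb, Pdgfc, Pdgfd, Angpt1 or Angpt2 was taken. That gave 20 of 45037 probe sets, standing for 10 of the 18193 named genes, and all 10 genes were measured. The VEGF family held 7 of the probe sets, the PDGF family 9 and the angiopoietins 4. Where a gene had several probe sets, the one with the highest mean over all arrays speaks for the gene and is called its brightest.

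Granulosa cells are the somatic cells that surround the oocyte in the ovarian follicle, and the study asked what they do without the forkhead transcription factors FOXO1 and FOXO3. Each of 6 Affymetrix expression arrays held total RNA of 1 sample, in 3 groups of 2: wild type mice at day 25 of age, knockout mice at day 25, and knockout mice at 2 months. The knockout genotype was Foxo1 f/-;Foxo3 f/-; Amhr2-cre, called dKO here, in which a Cre recombinase expressed from the Amhr2 locus, active in granulosa cells, deletes the floxed alleles. All animals came from a mixed FVB and C57BL/6 background, and neither wild-type cells at 2 months nor cells with the Cre alone were analysed here. In the comparison of dKO at 2 months with wild type, age and genotype therefore cannot be told apart. No label ties a replicate to an animal of its own, and the p-values thus cover the spread between samples, which may be partly or wholly technical.

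Before ovulation, follicles hold no vessels inside the granulosa layer, and granulosa cells send growth factors to the vessels of the theca layer around them. VEGFA drives endothelial growth and permeability through the receptor KDR and is also bound by FLT1, which VEGFB and placental growth factor (Pgf) bind too, whereas VEGFC acts mainly on lymphatic endothelium through FLT4. PDGFs bind PDGFRA and PDGFRB on stromal cells, pericytes and smooth muscle cells. ANGPT1 activates the endothelial receptor TEK, and ANGPT2 blocks or weakly activates it depending on the setting. In endothelial cells Angpt2 is known as a gene activated by FOXO1.

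The deposited values are RMA intensities, the brightness of a probe set on a linear scale after normalization, and the median was 73 or 74 on every array. Differences are given as log2(value + 1) with the SE of the fit. On the brightest Foxo1 probe set the intensities were 10319 and 7666 in wild type, 904 and 2291 in day 25 dKO, and 126 and 343 in dKO at 2 months. Foxo3 read 1632 and 1342, then 2539 and 3279, then 2484 and 1872, and was thus not lower in dKO. Whether these probe sets lie inside the deleted parts is not given in the sources used here, and a probe set outside them checks nothing. Granulosa genes were bright on all arrays, with Inha between 26038 and 27499 and Foxl2 between 6165 and 13167. Replicate 1 of dKO at 2 months stood apart, with a correlation over probe sets of 0.964 to 0.978 with the other 5 arrays. Results that rest on it are given with and without it.

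Angpt2 and Pdgfb carried the widest differences among the 10 genes on the brightest probe sets, and the second probe set of each ran the same way. Angpt2 was 3.53-fold higher in dKO than in wild type at day 25, and Pdgfb was 2.02-fold lower in dKO at 2 months than in dKO at day 25. With 2 arrays a group neither passed the threshold once p-values were adjusted over all probe sets, and the other 8 genes differed by less than 2-fold in each comparison on their brightest probe sets.

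**Figure D1:**
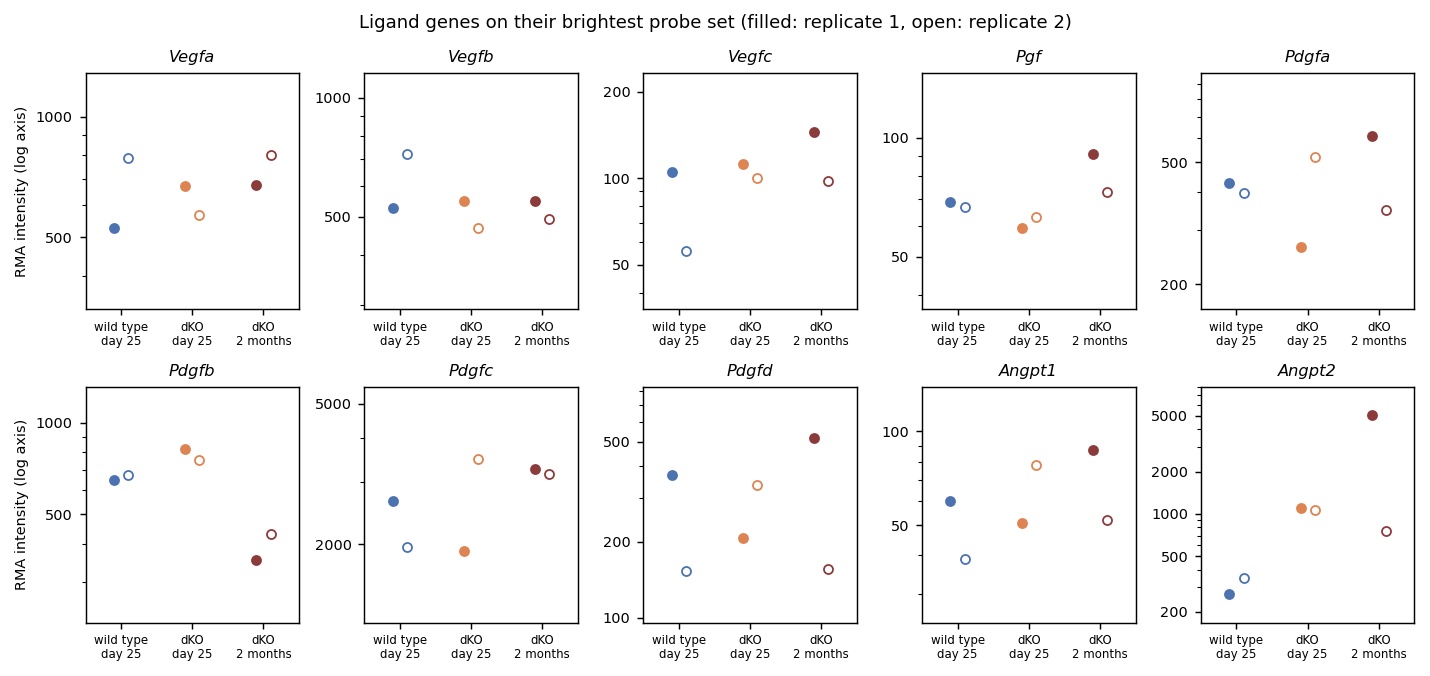
RMA intensity of each of the 10 ligand genes on its brightest probe set (log axis, scaled per gene) on the 6 arrays, with replicate 1 filled and replicate 2 open. Angpt2 lies at 268 and 351 in wild type but reaches at least 1060 in both dKO day 25 samples, and Pdgfb lies at 353 and 431 in dKO at 2 months, below the other 4 arrays.

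No member passed an adjusted p of 0.05 in limma in any comparison, and over all probe sets 0% did in each of the 3. The smallest adjusted p of a member was 0.649 in dKO against wild type at day 25, 0.712 between the dKO ages, and 0.215 in the comparison of 2-month dKO with wild type. The smallest of any probe set was 0.367, 0.712 and 0.114 in the same order. Exact permutation of 2 against 2 samples has a smallest p of 0.333, so it was not used.

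At day 25, 0 member probe sets were higher and 0 lower in dKO at an unadjusted p under 0.05, against 3.36% and 4.79% of all probe sets. Both dKO arrays lay above both wild-type arrays for 4 of the 20, both probe sets of Angpt2 and 1 each of Pdgfb and Vegfc, against 19.7% of all probe sets. They lay below for 2 of the 20, of Pgf and Pdgfd, against 21.5%. The median difference over the members was 0.16, with 13 of 20 higher, against a median of 0.00 over all probe sets, of which 49% were higher. The counts by unadjusted p and by overlap lie near or under the background. The median and the share of higher members lie above it, but several probe sets of a gene count separately there. On the brightest probe sets 6 genes were higher and 4 lower, where 55.4% of all named genes were higher. The median of 0.16 was smaller than the replicate SD of the median level, 0.30. It became -0.01 without replicate 2 of dKO at day 25, so no shift of the members can be read from it.

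Between the dKO ages, 1 member probe set (Pgf) was higher at 2 months at an unadjusted p under 0.05 against 3.36% of all, and 2 (both of Pdgfb) were lower against 2.22%. Arrays did not overlap for 2 probe sets that were higher, of Pgf and Vegfa, against 18.9%, and for 2 that were lower, both of Pdgfb, against 13.3%. The median over members was 0.26 with 18 of 20 higher, against 0.03 over all probe sets, of which 55.2% were higher. Without replicate 1 of dKO at 2 months the median was -0.084 with 8 of 20 higher, so the count of higher members rested on that array.

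For dKO at 2 months against wild type at day 25, 2 member probe sets (both of Angpt2) were higher at an unadjusted p under 0.05 against 6.99%, and 1 (Pdgfb) was lower against 6.11%. Arrays did not overlap for 7 that were higher, of Angpt2, Pdgfc, Vegfc and Pgf, against 22.5%, and for 3 that were lower, of Pdgfb and Pdgfd, against 18.3%. The median was 0.28 with 16 of 20 higher, against 0.02 over all probe sets, of which 53% were higher. Without replicate 1 of dKO at 2 months it was 0.10 with 11 of 20 higher. This comparison shares its wild-type arrays with the first and its 2-month arrays with the second, so the 3 are not independent.

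**Figure D2:**
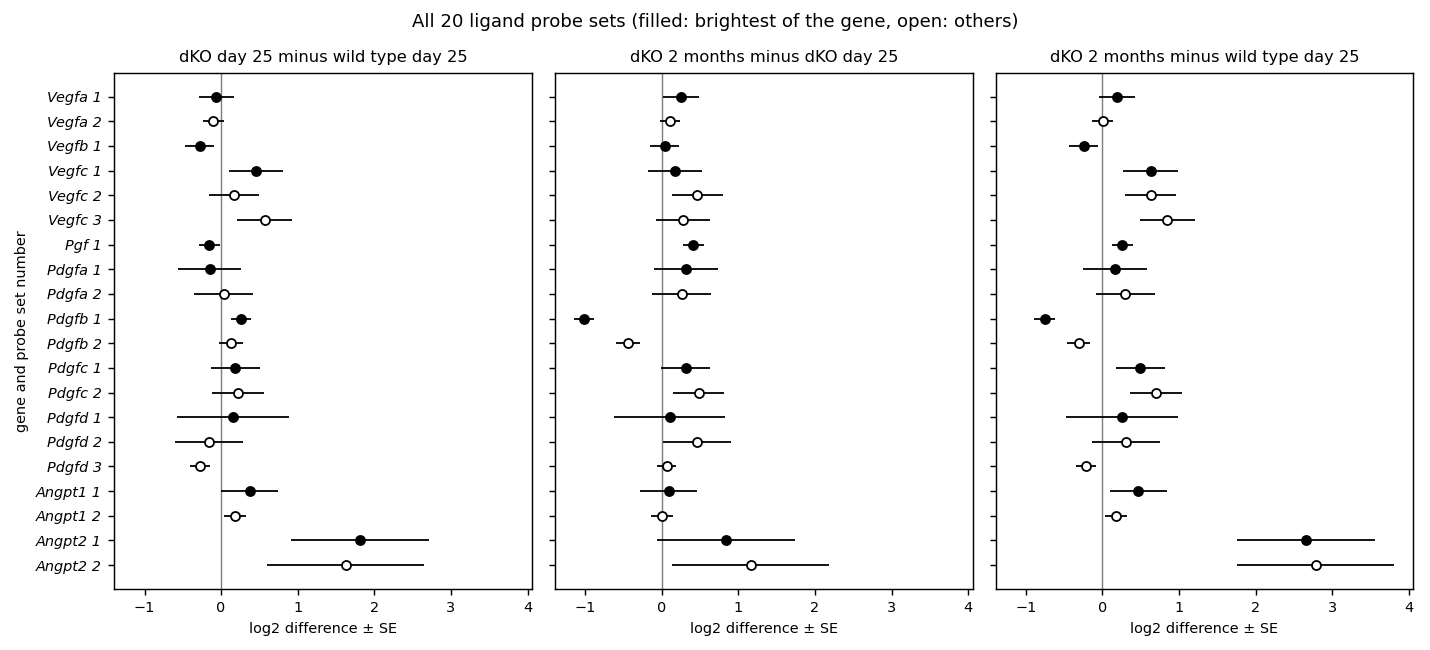
Log2 difference ± SE of all 20 ligand probe sets in the 3 comparisons, filled for the brightest probe set of a gene and open for the others. In the left panel both Angpt2 probe sets lie at 1.82 and 1.62, and in the middle panel both Pdgfb probe sets lie below 0 at -1.01 and -0.44.

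Angpt2, the ligand that can oppose ANGPT1 at TEK, had intensities of 268 and 351 in wild type, 1109 and 1060 in day 25 dKO, and 5065 and 748 in dKO at 2 months. All 4 dKO arrays lay above both wild-type arrays, the day 25 replicates were close together, and the 2-month replicates were 6.76-fold apart. A gap between replicates that wide was found in 0.184% of all probe sets in that group.

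At day 25 Angpt2 was higher in dKO by 1.82 ± 0.90 (SE, 2 arrays against 2), or 3.53-fold, with adjusted p = 0.66 in limma. Of all probe sets, 0.209% differed upward by as much, and 0.331% lay as far from 0 in either direction. The SE pools the spread of all 3 groups, the wide 2-month pair included. With the 4 day 25 arrays alone the difference was the same and the adjusted p was 0.322, and over all alternatives run it lay between 0.322 and 0.934.

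Against wild type, Angpt2 at 2 months was higher by 2.66 ± 0.90, or 6.33-fold (adjusted p = 0.353), and without replicate 1 of dKO at 2 months by 1.28, or 2.43-fold (adjusted p = 0.335). Over all alternatives the adjusted p of that comparison ran from 0.0773, without replicate 2 of dKO at 2 months, to 0.741. Against dKO at day 25 it was higher by 0.84 ± 0.90 with overlapping arrays (adjusted p = 0.797). Without the same replicate the sign turned, to -0.54 (adjusted p = 0.894, with 0.122 to 0.924 over the alternatives), so the direction between the dKO ages hung on 1 array.

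The second Angpt2 probe set had the same order of groups by mean and the same outlying array, with 40 and 40 in wild type, 121 and 130 in day 25 dKO, and 849 and 93 in dKO at 2 months. Its difference at day 25 was 1.62 ± 1.03, or 3.08-fold (adjusted p = 0.71). Its 2-month replicates were 9.04-fold apart. Both probe sets read the same RNA on the same arrays and are not replicates of the difference.

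Angpt1, the agonist of TEK, read 60 and 39 in wild type, 51 and 78 in day 25 dKO, and 87 and 52 in dKO at 2 months. The groups overlapped in all 3 comparisons. Differences were 0.38 ± 0.37 at day 25 (adjusted p = 0.819) and 0.09 ± 0.37 between the dKO ages. For dKO at 2 months against wild type at day 25 the difference was 0.47 ± 0.37. The dimmer of its probe sets ranged from 20 to 27.

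Pdgfb, the ligand by which endothelium recruits pericytes, had intensities of 647 and 671 in wild type, 821 and 755 in day 25 dKO, and 353 and 431 in dKO at 2 months. Both 2-month arrays were the lowest of the 6 and both dKO day 25 arrays the highest, with no overlap between any groups. Replicates were at most 1.22-fold apart.

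Between the dKO ages Pdgfb was lower at 2 months by -1.01 ± 0.13, or 2.02-fold, with adjusted p = 0.712 in limma. As far from 0 in either direction were 2.61% of all probe sets. Against wild type it was lower by -0.75 ± 0.13, or 1.69-fold (adjusted p = 0.215), the smallest adjusted p of any member. Without replicate 1 of dKO at 2 months these values were -0.87 and -0.61.

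At day 25 Pdgfb was higher in dKO by 0.26 ± 0.13, or 1.19-fold (adjusted p = 0.672). The second Pdgfb probe set, at 75 and 91, then 82 and 100, then 67 and 66, was also lowest in the 2-month arrays. It was lower by -0.44 ± 0.15 between the dKO ages (adjusted p = 0.712), and its day 25 groups overlapped.

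Pdgfa, which acts through PDGFRA on stromal precursors, read 427 and 397 in wild type, 265 and 518 in day 25 dKO, and 609 and 350 in dKO at 2 months. Groups overlapped everywhere, and the dKO day 25 replicates, 1.95-fold apart, enclosed both wild-type arrays. Its difference at day 25 was -0.15 ± 0.41 (adjusted p = 0.94), and the second probe set gave 0.04 ± 0.39.

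Pdgfc, a PDGFRA ligand released in latent form, read 2653 and 1961 in wild type, 1922 and 3502 in day 25 dKO, and 3268 and 3168 in dKO at 2 months. The second probe set followed at 2489 and 1770, then 1806 and 3303, then 3610 and 3215. On both, the 2-month arrays lay above both wild-type arrays, and the dKO day 25 replicates were 1.82-fold and 1.83-fold apart. On the brightest, dKO at 2 months was higher than wild type at day 25 by 0.50 ± 0.32, or 1.41-fold (adjusted p = 0.537). On the second it was higher by 0.70 ± 0.34 (adjusted p = 0.442). At day 25 the difference on the brightest was 0.19 ± 0.32 and turned to -0.25 without dKO day 25 replicate 2.

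Pdgfd, a PDGFRB ligand also released in latent form, had the widest SE of the 10 genes after Angpt2. It read 370 and 153 in wild type, 208 and 338 in day 25 dKO, and 519 and 156 in dKO at 2 months. No group stood apart, and the differences were 0.16, 0.10 and 0.26, each ± 0.73. Of its other probe sets, the dimmest lay between 10 and 14, under the lower quartile of every array (22 or 23), and was lower in both dKO groups than in wild type without overlap.

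Vegfa, the principal angiogenic factor of the follicle, had intensities of 528 and 788 in wild type, 671 and 569 in day 25 dKO, and 675 and 802 in dKO at 2 months. The wild-type arrays enclosed both dKO day 25 arrays. Differences were -0.06 ± 0.23 at day 25 (adjusted p = 0.961), 0.25 ± 0.23 between the dKO ages without overlap (adjusted p = 0.77) and 0.19 ± 0.23 at 2 months against wild type (adjusted p = 0.741).

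The sign of the Vegfa difference from wild type hung on single arrays. Leaving out wild-type replicate 2 gave 0.23 at day 25, leaving out replicate 2 of dKO at day 25 gave 0.057, and the value at 2 months was -0.10 without wild-type replicate 1. Between the dKO ages it kept its sign with any 1 array left out. The second Vegfa probe set lay between 49 and 61 and its groups overlapped in each comparison. Against wild type these arrays therefore show no direction for Vegfa.

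Vegfb, a FLT1 ligand linked to lipid handling more than to sprouting, read 527 and 720 in wild type, 549 and 468 in day 25 dKO, and 547 and 494 in dKO at 2 months. Wild-type replicate 2 was the highest array, and replicate 1 lay among the dKO arrays. Its difference was -0.28 ± 0.19 at day 25 (adjusted p = 0.727), 0.04 ± 0.19 between the dKO ages and -0.24 ± 0.19 at 2 months against wild type (adjusted p = 0.598).

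Vegfc, the lymphatic growth factor, had 3 probe sets. The brightest, which by its name may cross-hybridize, read 105 and 56, then 112 and 100, then 145 and 98, and overlapped in every comparison. The third read 48 and 56 in wild type, 76 and 79 in day 25 dKO, and 136 and 65 in dKO at 2 months, so that all dKO arrays lay above wild type. It was higher by 0.57 ± 0.36 at day 25, or 1.49-fold (adjusted p = 0.709), and by 0.85 ± 0.36 at 2 months (adjusted p = 0.406), or by 0.32 without dKO 2-month replicate 1. The second, at 55 and 45, then 52 and 60, then 107 and 56, had the higher mean in dKO too. All 3 ran the same way in each comparison, with differences of 0.16 to 0.57 at day 25. Without dKO 2-month replicate 1 the values between the dKO ages, 0.17 to 0.46, became -0.25 to 0.0036.

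Pgf, the placental growth factor, read 69 and 67 in wild type, 59 and 63 in day 25 dKO, and 91 and 73 in dKO at 2 months. None of the groups overlapped, with dKO day 25 lowest and dKO 2 months highest. It was lower by -0.15 ± 0.14 at day 25 (adjusted p = 0.791) and higher by 0.41 ± 0.14, or 1.33-fold, between the dKO ages (adjusted p = 0.712). These intensities lie near the array median of 73 or 74, and without dKO 2-month replicate 1 the latter value was 0.26.

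Promoter windows from RefSeq (GRCm38.p6, from 250 bases before to 50 after a transcript's start) were matched by symbol for 7 of the 10 genes, with 10 windows in all. No window was matched for Angpt1, Angpt2 or Pdgfb, so the promoters of these genes were not searched. The 3 windows below are those of the matched genes with the smallest p at day 25 on the brightest probe set, and show what letters a forkhead or general promoter factor would meet there. Capitals mark the forkhead core AAACA and the GC box GGGCGG on either strand, and all are written 5′ to 3′ on the gene's strand. They lie at chr19:6987602-6987901 (minus strand) for Vegfb, chr8:54077282-54077581 (plus strand) for Vegfc and chr12:85177264-85177563 (minus strand, the upstream start) for Pgf.
Vegfb: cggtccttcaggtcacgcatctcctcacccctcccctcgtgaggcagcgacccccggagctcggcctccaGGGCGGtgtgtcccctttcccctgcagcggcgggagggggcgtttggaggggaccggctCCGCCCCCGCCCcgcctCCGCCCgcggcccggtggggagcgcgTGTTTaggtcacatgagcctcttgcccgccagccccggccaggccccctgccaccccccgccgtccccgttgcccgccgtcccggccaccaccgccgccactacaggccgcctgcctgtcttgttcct
Vegfc: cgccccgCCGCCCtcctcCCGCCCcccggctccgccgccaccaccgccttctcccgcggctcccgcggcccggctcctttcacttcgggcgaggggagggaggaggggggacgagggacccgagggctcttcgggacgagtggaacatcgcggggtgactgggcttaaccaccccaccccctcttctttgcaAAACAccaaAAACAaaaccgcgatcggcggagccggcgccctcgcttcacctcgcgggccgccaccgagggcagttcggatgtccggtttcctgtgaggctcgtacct
Pgf: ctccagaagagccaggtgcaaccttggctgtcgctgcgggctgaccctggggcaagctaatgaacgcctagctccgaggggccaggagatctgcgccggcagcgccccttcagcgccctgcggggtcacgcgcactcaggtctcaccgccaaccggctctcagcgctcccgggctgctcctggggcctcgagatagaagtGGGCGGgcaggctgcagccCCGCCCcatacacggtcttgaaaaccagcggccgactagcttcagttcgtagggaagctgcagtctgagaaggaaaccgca
The FOXO element GTAAACA, which contains the core, was in 0 of the 10 windows, against 3.65% of 32851 RefSeq windows of the same length. The core AAACA was in 2, of Vegfb and Vegfc, against 50.5%, and the hypoxia element core ACGTG in 1, of Vegfa, against 19.6%. The GC box was in 7 windows of 5 genes (Vegfa, Vegfb, Vegfc, Pgf and Pdgfa) against 35.7%. All motifs were searched on both strands, and a match is a description of letters, not a site.

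The 9 receptors and co-receptors of these ligands were all measured. On the log2 scale all 9 were higher in dKO at day 25 and in dKO at 2 months than in wild type at day 25. All 9 were also higher at 2 months than at day 25 in dKO, Pdgfra by 0.018. Of all named genes 55.4%, 53% and 55.4% were higher in the 3 comparisons. Their median difference was 0.62 at day 25, 0.41 between the dKO ages and 1.06 at 2 months against wild type, where over all named genes it was 0.03, 0.02 and 0.04. In limma 0 passed after adjustment, and 2, 1 and 5 were higher at an unadjusted p under 0.05, where 4.88%, 3.73% and 9.53% of all named genes were. Without replicate 1 of dKO at 2 months, 7 of 9 were higher than in dKO at day 25 (median 0.19) and 9 of 9 higher than in wild type (median 0.69).

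Nrp1, the neuropilin that binds VEGFA as a co-receptor of KDR, read 490 and 370 in wild type, 689 and 1137 in day 25 dKO, and 2814 and 1659 in dKO at 2 months. No groups overlapped, and the order was wild type, dKO day 25, dKO 2 months. It was higher by 1.05 ± 0.37 at day 25 (2.08-fold, adjusted p = 0.587), by 1.29 ± 0.37 between the dKO ages and by 2.34 ± 0.37 at 2 months against wild type (5.06-fold, adjusted p = 0.192). Without replicate 1 of dKO at 2 months the last value was 1.96.

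Nrp2, the neuropilin linked to VEGFC and FLT4, read 196 and 215, then 459 and 552, then 1539 and 482. Its difference between the dKO ages was 0.77 ± 0.55, and -0.06 without dKO 2-month replicate 1. All dKO arrays lay above wild type. Tek, the angiopoietin receptor, read 49 and 54 in wild type, 86 and 168 in day 25 dKO, and 195 and 113 in dKO at 2 months. It was higher by 1.21 ± 0.41 at day 25, or 2.31-fold (adjusted p = 0.58), and by 1.51 ± 0.41 at 2 months (adjusted p = 0.305). Tie1, the orphan partner of TEK, read 24 and 39, then 35 and 48, then 94 and 50, overlapping at day 25.

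Kdr, the main VEGFA receptor, read 154 and 202 in wild type, 178 and 268 in day 25 dKO, and 544 and 250 in dKO at 2 months. Its day 25 groups overlapped (0.31 ± 0.43, adjusted p = 0.879), as did those of Flt1 (65 and 66 against 60 and 92) and Flt4 (158 and 224 against 172 and 252). Pdgfrb, the pericyte receptor of PDGFB, read 618 and 506, then 732 and 1047, then 810 and 1324, with all dKO arrays above wild type and a day 25 difference of 0.65 ± 0.31 (adjusted p = 0.658). Pdgfra read 710 and 254, then 469 and 911, then 650 and 674, and overlapped in each comparison.

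**Figure D3:**
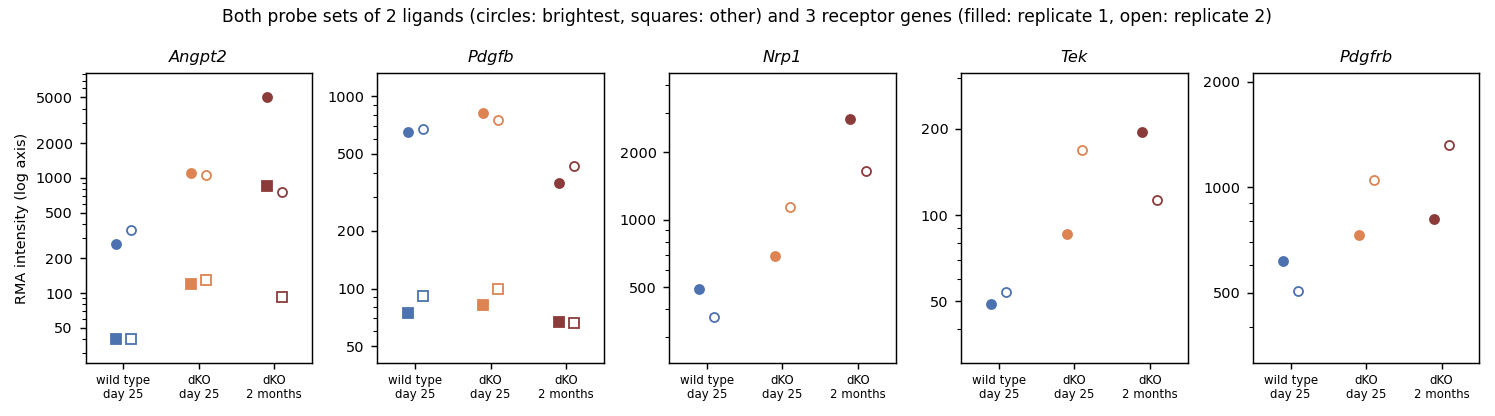
RMA intensity (log axis, scaled per gene) of both probe sets of Angpt2 and Pdgfb, with circles for the brightest and squares for the other, and of Nrp1, Tek and Pdgfrb. The 4 dKO arrays of Angpt2, Nrp1, Tek and Pdgfrb lie above both wild-type arrays, and Pdgfb is lowest on both 2-month arrays.

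Markers of other cell types differed between the same arrays. In bulk RNA, more or fewer cells of a type cannot be told apart from more or less RNA per cell. Of 16 endothelial markers, 14 had higher log2 means in dKO at day 25, 16 at 2 months against dKO at day 25 and 16 at 2 months against wild type, with medians of 0.40, 0.86 and 1.28. At an unadjusted p under 0.05 in limma 3, 6 and 13 were higher, against 4.88%, 3.73% and 9.53% of all named genes. After adjustment 0 passed. The summed intensity of the endothelial markers was 1363 and 1524 in wild type, 1659 and 2225 in day 25 dKO, and 4715 and 2564 in dKO at 2 months. The dimmest lay at 9 or 10, under the lower quartile of every array (22 or 23), and Cdh5 read 82 and 81, then 142 and 167, then 318 and 177. Without dKO 2-month replicate 1 the endothelial median was 0.42 between the dKO ages and 0.74 against wild type, each with 16 of 16 higher.

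Mural markers, of pericytes and smooth muscle, had higher log2 means in 11 of 12 at day 25 and 10 of 12 at 2 months against wild type (medians 0.71 and 0.70). Their sums were 5641 and 4704, then 9721 and 11798, then 21902 and 8248. In the 3 comparisons 2, 0 and 4 were higher at an unadjusted p under 0.05 in limma, and 0 passed after adjustment. Without dKO 2-month replicate 1 the mural median against wild type was 0.59, with 10 of 12 higher. Leukocyte markers were higher in 12 of 12 in each comparison (medians 1.10, 0.71 and 1.92), with sums of 1946 and 3680, then 9282 and 5241, then 18735 and 5939. Of the leukocyte markers 0, 0 and 8 were higher at an unadjusted p under 0.05 in limma, against 4.88%, 3.73% and 9.53% of all named genes. After adjustment 0 passed. Without dKO 2-month replicate 1 leukocyte markers were higher in 3 of 12 between the dKO ages (median -0.086). Against wild type they were then higher at 2 months in 12 of 12 (median 1.04). On dKO 2-month replicate 1, the array on which Angpt2 was highest, 12 of 12 leukocyte, 15 of 16 endothelial and 8 of 8 surface epithelium markers had their highest value. The part of these cells in the values of Angpt2, the receptors and the other ligands was not tested.

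Oocyte markers had higher log2 means in dKO in 11 of 11 at day 25 and lower means in 11 of 11 at 2 months against dKO at day 25, medians 1.13 and -2.08. Without dKO 2-month replicate 1 the latter was -0.73, still with 11 of 11 lower. Their sums were 29303 and 17518, then 41519 and 61439, then 5316 and 32521. Pdgfb and the oocyte markers were thus both lower at 2 months than at day 25 in dKO. Against wild type, the oocyte markers at 2 months were lower in 11 of 11 (median -1.09). Without dKO 2-month replicate 1 they were higher than in wild type in 11 of 11 (median 0.46). Pdgfb was lower than in wild type with and without that array (-0.75 and -0.61). The part of oocyte RNA in the Pdgfb values was not tested. Of 12 granulosa markers listed 11 were measured, with 8, 5 and 8 higher in the 3 comparisons and medians of 0.04, -0.00 and 0.14. Their sums lay between 122504 and 144519 on the 6 arrays. Single granulosa markers moved in both directions. Between the dKO ages Fst was lower by -0.82 ± 0.21 and Foxl2 higher by 0.62 ± 0.23 (adjusted p = 0.712 each in limma). At day 25 Amhr2 was lower by -0.43 ± 0.15 (adjusted p = 0.584).

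**Figure D4:**
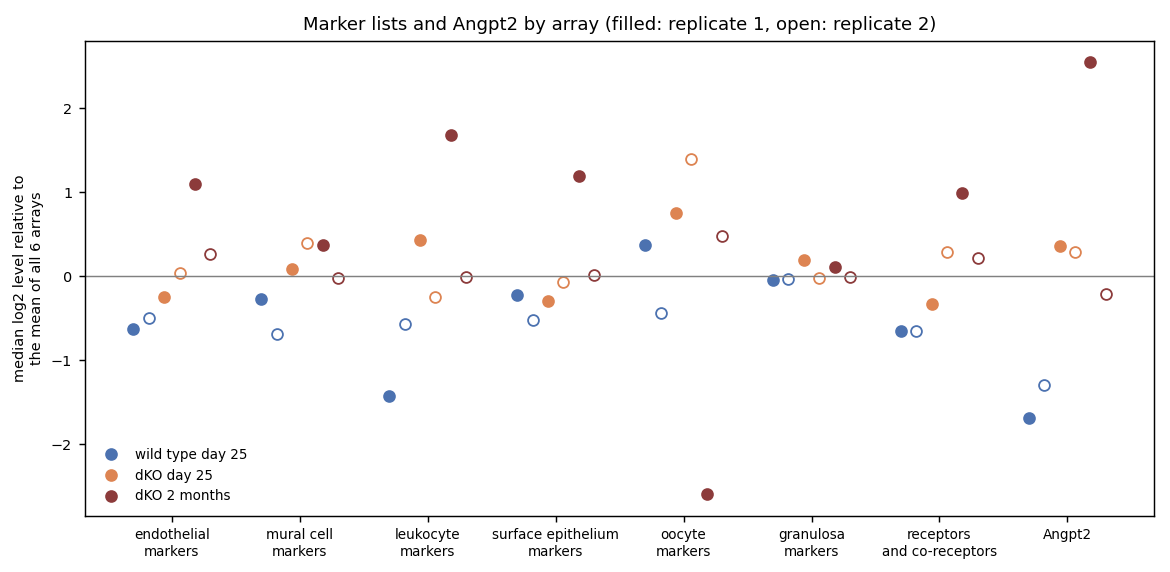
Median log2 level of each marker list, of the receptors and of Angpt2 (brightest probe set) on the 6 arrays, relative to the mean of all 6. Replicate 1 of dKO at 2 months has the highest point for endothelial, leukocyte and surface epithelium markers, receptors and Angpt2 and the lowest for oocyte markers, and granulosa markers stay near 0.

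The genes by which cells sense oxygen and set VEGF showed both directions. Of 8 measured, 6 had higher log2 means at day 25 and 2 lower, and 1 was higher at an unadjusted p under 0.05 (4.88% of all named genes), with 0 after adjustment in limma. Egln1, a prolyl hydroxylase that marks HIF proteins for decay, read 829 and 842 in wild type, 1036 and 1025 in day 25 dKO, and 1051 and 954 at 2 months. Hif1a itself was higher at day 25 by 0.48 ± 0.20 and Epas1, which encodes HIF2A, lower by -0.69 ± 0.29, each without overlap (adjusted p = 0.625 and 0.629).

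Genes known to be induced by hypoxia did not share a direction either, with 6 of 13 higher at day 25, 4 between the dKO ages and 7 at 2 months against wild type. Slc2a1, a glucose transporter, was higher at day 25 by 0.41 ± 0.12 (adjusted p = 0.555). Adm, the vasoactive peptide adrenomedullin, read 72 and 54, then 95 and 101, then 247 and 148, with no overlap between groups. Car9, a carbonic anhydrase, read 217 and 140, then 315 and 411, then 141 and 225. Bnip3 was lower at 2 months than in wild type by -0.66 ± 0.17 (adjusted p = 0.3).

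Of other secreted regulators of vessel growth, 16 of 18 listed genes were measured, and 11 had higher log2 means at day 25 (median 0.31), 9 between the dKO ages and 10 at 2 months against wild type. In limma 0 passed after adjustment, and 2 were higher and 1 lower at day 25 at an unadjusted p under 0.05, against 4.88% and 3.43% of all named genes. Thbs2, encoding the angiogenesis inhibitor thrombospondin 2, read 124 and 111 in wild type, 403 and 450 in day 25 dKO, and 2783 and 443 in dKO at 2 months. As for Angpt2, all dKO arrays lay above wild type and dKO 2-month replicate 1 far above the rest. Thbs1, another thrombospondin, was lower at day 25 by -0.62 ± 0.22 (adjusted p = 0.587).

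Ptn, the growth factor pleiotrophin, read 116 and 63, then 202 and 229, then 222 and 243, and was higher by 1.32 ± 0.30 at day 25 (adjusted p = 0.491). Serpinf1, encoding the inhibitor PEDF, read 2003 and 1030, then 2099 and 1930, then 606 and 968, lowest at 2 months. The relatives Vegfd and Angpt4, outside the 10 genes, were higher at day 25 without overlap, as were 26.4% of all named genes. Their adjusted p in limma was 0.588 and 0.772. Vegfd read 120 and 107 in wild type against 184 and 139 in dKO, and Angpt4 112 and 93 against 115 and 160.

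Of 21 measured signal transducers of the receptors (22 listed), 11 had higher log2 means at day 25 and 10 lower, with a median of 0.01. In limma 0 passed after adjustment, and 4 were higher at day 25 at an unadjusted p under 0.05, against 4.88% of all named genes. Pik3r1, a regulatory subunit of PI3K, read 1696 and 1660 in wild type, 5552 and 4450 in day 25 dKO, and 2942 and 6439 at 2 months, or 2.96-fold higher at day 25 (adjusted p = 0.508). Nos3, the endothelial nitric oxide synthase, read 79 and 80, then 96 and 121, then 136 and 116.

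For the member of highest mean intensity in each family, the genes most like it were found by Pearson's r over the 6 arrays on the log2 scale, among 11076 named genes with a mean intensity of at least 100. Angpt2 was most like Pcdhb20 (r = 0.997), Myl6 (0.996) and Pkp4 (0.995). Without dKO 2-month replicate 1 the values were 0.993, 0.988 and 0.988. Vegfa was most like Lss (0.99), Cnpy3 (0.98) and F2r (0.97), and Pdgfc most like Rasgrp3 (0.99), Bcl2l1 (0.98) and Mad2l2 (0.97). These are descriptions over 6 arrays chosen from many genes.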

How the data were processed

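Total RNA of 6 granulosa cell samples was labelled with biotin and hybridised by an Affymetrix protocol, per the labels. The authors deposited 1 whole-number intensity for each probe set and array, on a linear scale. The submitters' processing notes name affy and RMA. Versions, genome build and the rounding to whole numbers are not given in the sources used here. RMA gives all arrays nearly the same distribution, which hides any shift shared by most genes.

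Values were transformed as log2(value + 1), which understates folds of dim genes. After 64 AFFX controls were left out, 45037 probe sets were fitted with limma 3.58.1 (R 4.3.3), as a mean per group over 6 arrays with 3 residual degrees of freedom and 3 two-sided contrasts. P-values were adjusted by Benjamini-Hochberg over all probe sets, with a threshold of 0.05. The platform annotation gave 1 symbol for 34945 probe sets, several for 932 and none for 9160.

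The 10 genes and the gene lists were chosen with earlier results of these data known, so no list was tested. All members and up to 4 genes of smallest p per list and comparison could be named, and a choice of these is printed. AAACA and the GC box were added as motifs after seeing values. The fit was tested on simulated data. The number of arrays limits the precision. Alternatives were a pseudocount of 16, equal medians, quantile normalization, leaving out probe sets under 50, an intensity trend with a robust prior, the 4 arrays compared, a replicate block, means over probe sets, no cross-hybridizing probe sets and each array left out. A crossed block and lists without 1 array were added after seeing the data.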

Additional observations from a re-analysis of the deposited data

How the results depend on the processing

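No member probe set passed an adjusted p of 0.05 in any comparison under any of the alternatives run. Of 480 recomputed differences of single genes on their brightest probe sets, 457 kept their sign and 0 passed. Counts at an unadjusted p under 0.05 moved more. At day 25 the count of 0 became 1 with the intensity trend and robust prior and 4 with the 4 compared arrays alone, and ran from 0 to 4 with an array left out (4 without either dKO 2-month array, 2 without wild-type replicate 1, 1 without dKO day 25 replicate 2). The 3 between the dKO ages ran from 2 to 6, and the 3 at 2 months against wild type from 1 (without wild-type replicate 2) to 6, both highest without dKO 2-month replicate 2. In such fits the remaining sample of the shortened group borrows its spread from the other groups.

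The median difference of the members between the dKO ages, 0.26, ran from -0.084 without dKO 2-month replicate 1 to 0.51 without replicate 2. Against wild type the 0.28 ran from 0.10 to 0.61 with the same arrays left out, and the 0.16 at day 25 ran from -0.01 without dKO day 25 replicate 2 to 0.31 without replicate 1. The replicate SD of the median level was 0.30.

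With a replicate block, 0, 3 and 4 member probe sets passed an unadjusted p under 0.05 in the 3 comparisons, and the block changed no adjusted call. The deviations of equal replicate numbers correlated at -0.16, -0.21 and 0.06, which gave no sign that the numbers pair the samples. With 2 arrays a group this cannot exclude a pairing. With a crossed replicate block, wild-type numbers exchanged, the counts were 0, 2 and 3.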

Other observations

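Stromal, theca and erythrocyte markers were measured as well. Of 8 stromal markers, 7 had higher means in dKO at day 25, 4 at 2 months against dKO at day 25 and 5 at 2 months against wild type, with medians of 0.31, 0.11 and 0.15. Of 6 theca markers, 4, 3 and 5 were higher, with medians of 0.22, 0.10 and 0.25. Single theca markers differed more widely. Cyp17a1 read 1275 and 1509 in wild type, 389 and 5073 in day 25 dKO, and 12804 and 15028 in dKO at 2 months. Between the dKO ages it was higher by 3.30 ± 1.20 (adjusted p = 0.712 in limma). Aldh1a1 read 3557 and 5359, then 7153 and 9409, then 13637 and 12440. Of 3 erythrocyte markers, 2, 3 and 2 were higher. Surface epithelium markers were higher in 5, 8 and 8 of 8, with medians of 0.24, 0.77 and 1.05. Without dKO 2-month replicate 1 their median was 0.23 between the dKO ages and 0.54 against wild type, each with 6 of 8 higher. In limma 0 markers of these lists passed after adjustment. At an unadjusted p under 0.05, 1 stromal, 1 theca, 1 erythrocyte and 0 surface epithelium markers were higher at day 25, against 4.88% of all named genes. Between the dKO ages the counts in the same order were 0, 2, 0 and 1, against 3.73%. For 2-month dKO against wild type they were 1, 2, 1 and 5, against 9.53%.

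Several other genes that act on or in vessels differed between dKO and wild type without overlap. Of all named genes, 26.4% were higher without overlap at day 25 and 26.5% at 2 months against wild type. After adjustment in limma 0 named genes passed in either comparison. Angptl4, a secreted lipase inhibitor, read 1159 and 2001 in wild type, then 2795 and 2403 in day 25 dKO, then 3642 and 2905 at 2 months. Ptprb, the phosphatase that opposes TEK in endothelium, read 66 and 97, then 114 and 176, then 379 and 212. Acta2, smooth muscle actin, read 3534 and 2831, then 6472 and 7864, then 14836 and 5453. For these 3 genes every dKO array lay above both wild-type arrays, and dKO 2-month replicate 1 was highest.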
